A study of Mus musculus with 6 samples.

Results

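The stress response factors described here are 10 genes chosen by symbol from the 23453 gene rows of a deposited table of exon read counts: Atf3, Atf4, Atf5, Ddit3, Trib3, Cebpb, Cebpg, Nupr1, Ppp1r15a and Eif2ak4. Ddit3 encodes the protein known as CHOP. RNA sequencing covered 6 libraries of splenocytes, labelled cytotoxic T lymphocytes, from wild-type OT1 mice of the C57BL/6 strain. OT1 is a transgene for a T cell receptor that recognises OVA peptide. After peptide stimulation for 48 h, the cultures were kept for 8 h in TCM (3 libraries) or in FCM (3 libraries, titled vehicle). The labels expand neither FCM nor TCM, give no age of the mice, and do not say whether replicates came from separate animals or cultures, so each p-value reflects library-to-library spread alone, part of which may be technical.

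The integrated stress response is switched on when kinases such as GCN2, the product of Eif2ak4 and a sensor of uncharged transfer RNA, phosphorylate the translation initiation factor eIF2. General translation then slows, while messages with upstream open reading frames, among them Atf4, Atf5, Ddit3 and Ppp1r15a, are translated more. ATF4, a basic leucine zipper (bZIP) factor, pairs with C/EBP proteins and turns on genes of amino acid supply, and activated T cells depend on ATF4 for that supply. Because ATF4 is controlled to a large extent in translation, a transcript level does not measure the amount of the protein.

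All directions follow the header of the count table. The deposited normalized table holds the same reads with the titles of the groups exchanged: 6 of 6 of its columns match, by replicate number, a count column titled for the opposite group, and 0 of 6 match the column titled alike. Every direction given here therefore turns round under the other header, and the files do not show which header is right. Total counts ran from 17166687 to 21197117 in TCM libraries and from 18729982 to 25789381 in FCM libraries. Ddit3, Nupr1 and Eif2ak4 had the fewest reads of the 10, with 96 to 424 counts per library. Levels are CPM, counts relative to the library total after TMM scaling. Summed T cell markers, 9 of 9 tested, were at 891 to 999 CPM in TCM libraries and 799 to 916 CPM in FCM libraries, so T cell transcripts were present in all libraries. Of the 9, Cd3d was higher in TCM, Cd8a was lower and 7 did not pass. Summed neutrophil markers, 14 of 15 matched, were at 1547 to 2643 CPM in TCM libraries and 8863 to 13490 CPM in FCM libraries, and 13 of the 14 were lower in TCM. Summed macrophage markers were at 128 to 136 CPM in TCM libraries and 527 to 625 CPM in FCM libraries. Of the 9 tested, 5 were lower in TCM, 3 did not pass and Marco was 3.01-fold higher. Lyz2, with 32.7 CPM in TCM and 414 CPM in FCM, made up most of that gap: without it, a choice made after the values were seen, the sum was at 95.3 to 105 CPM in TCM libraries and 134 to 178 CPM in FCM libraries. Summed B cell markers were at 933 to 1149 CPM in TCM libraries and 1662 to 2033 CPM in FCM libraries. Of the mast cell and basophil markers, 5 of 5 tested were lower in TCM, and of the dendritic cell markers 3 of 5, against 30.0% of all tested genes. These sums were small: 16.5 to 26.2 CPM in TCM and 73.5 to 104 CPM in FCM for mast cells and basophils. For dendritic cells they were 14.3 to 16.3 CPM in TCM and 30.6 to 33.1 CPM in FCM. Some of these genes had very few reads, such as Clec9a with 3 counts over all TCM libraries. Summed NK cell markers were at 658 to 1200 CPM in TCM libraries and 270 to 403 CPM in FCM libraries. Nkg7 alone, with means of 964 CPM in TCM and 337 CPM in FCM, made up most of these sums. Of the 4 tested, Nkg7 was higher in TCM, Ncr1 (2.09 CPM in TCM and 3.54 CPM in FCM) was lower and 2 did not pass. In such bulk samples, fewer cells of a type and less RNA per cell cannot be told apart.

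The stretches below, from 150 bases before to 25 after the annotated start site, are shown because they are the 4 member promoters in which a searched motif was found. They come from RefSeq on GRCm38.p6, minus strand, at Trib3 (chr2:152344036-152344210), Atf3 (chr1:191183309-191183483), Nupr1 (chr7:126625446-126625620) and Ppp1r15a (chr7:45526244-45526418). Capitals mark TGATGNAA, the C/EBP-ATF response element that ATF4 binds with a C/EBP partner (on the opposite strand in the first 3 sequences), and TGACGTCA, the palindromic cyclic AMP response element bound by ATF and CREB factors, in the last.
Trib3: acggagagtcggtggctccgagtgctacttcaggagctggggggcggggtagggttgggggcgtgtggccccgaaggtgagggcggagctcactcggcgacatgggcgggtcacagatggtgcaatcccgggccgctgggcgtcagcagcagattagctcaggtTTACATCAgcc
Atf3: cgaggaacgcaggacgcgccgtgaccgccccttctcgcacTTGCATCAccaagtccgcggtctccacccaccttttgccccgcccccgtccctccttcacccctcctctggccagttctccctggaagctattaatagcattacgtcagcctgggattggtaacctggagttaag
Nupr1: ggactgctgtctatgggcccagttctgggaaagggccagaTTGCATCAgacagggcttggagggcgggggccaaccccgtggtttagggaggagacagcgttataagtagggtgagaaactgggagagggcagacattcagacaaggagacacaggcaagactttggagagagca
Ppp1r15a: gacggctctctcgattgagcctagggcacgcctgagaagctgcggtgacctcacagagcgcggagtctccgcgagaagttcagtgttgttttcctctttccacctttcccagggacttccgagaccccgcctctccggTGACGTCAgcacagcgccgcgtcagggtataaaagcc
The C/EBP-ATF element lay 15 to 22 bases after the start site in Trib3, and from -110 to -103 in both Atf3 and Nupr1. The cyclic AMP response element of Ppp1r15a lay from -12 to -5. All 10 genes matched the RefSeq promoters, with 12 windows of 250 bases before to 50 after a start site. TGATGNAA lay, on either strand, in 3 of the 12 windows, from 3 of the 10 genes, and in 3.97% of 32851 promoter windows. TGACGTCA was in 1 of the 12 windows, and in 1.79% of all windows. The 10 genes were chosen as stress response factors, so these shares are given as a description. The C/EBP palindrome TTGCGCAA (0.183% of windows) and the endoplasmic reticulum stress element known as ERSE (0.119%) were in none of the 12 windows. These motifs do not overlap each other in the windows. The genes with the C/EBP-ATF element in this window moved differently in TCM: Trib3 was lower, Atf3 was higher and Nupr1 did not pass the test.

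The comparison asked how transcript levels after 8 h in TCM differed from those after 8 h in FCM. Of the 10 genes, Trib3, Ddit3, Atf5 and Cebpg were lower in TCM and Atf3 was higher, while Atf4, Cebpb, Nupr1, Ppp1r15a and Eif2ak4 did not pass an adjusted p of 0.05. The 4 of 10 that were lower stand against a background of 30.0% of 12423 tested genes, the 1 of 10 that was higher against 28.8%, and the 5 of 10 that passed either way against 58.8%. The libraries did not overlap between groups in 6 of the 10, against 64.2% of all tested genes. These shares are close to or below the background and are no result about the 10 genes as a group. The lower neutrophil, macrophage and B cell sums in TCM stand beside the falls of Trib3, Ddit3, Atf5 and Cebpg, and their part in those falls was not tested. All 10 passed the filter on low counts. On GRCm38, GENCODE M21 places Atf3 at chr1:191170296-191218039 (minus strand), Atf4 at chr15:80255184-80257541 (plus strand), Atf5 at chr7:44812256-44816658 (minus strand), Ddit3 at chr10:127290774-127296288 (plus strand), Trib3 at chr2:152337422-152344032 (minus strand). It places Cebpb at chr2:167688915-167690418 (plus strand), Cebpg at chr7:35046422-35056573 (minus strand), Nupr1 at chr7:126623249-126630861 (minus strand), Ppp1r15a at chr7:45522916-45526268 (minus strand) and Eif2ak4 at chr2:118388618-118475234 (plus strand). Counts are of exon reads over each whole gene.

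**Figure D1:**
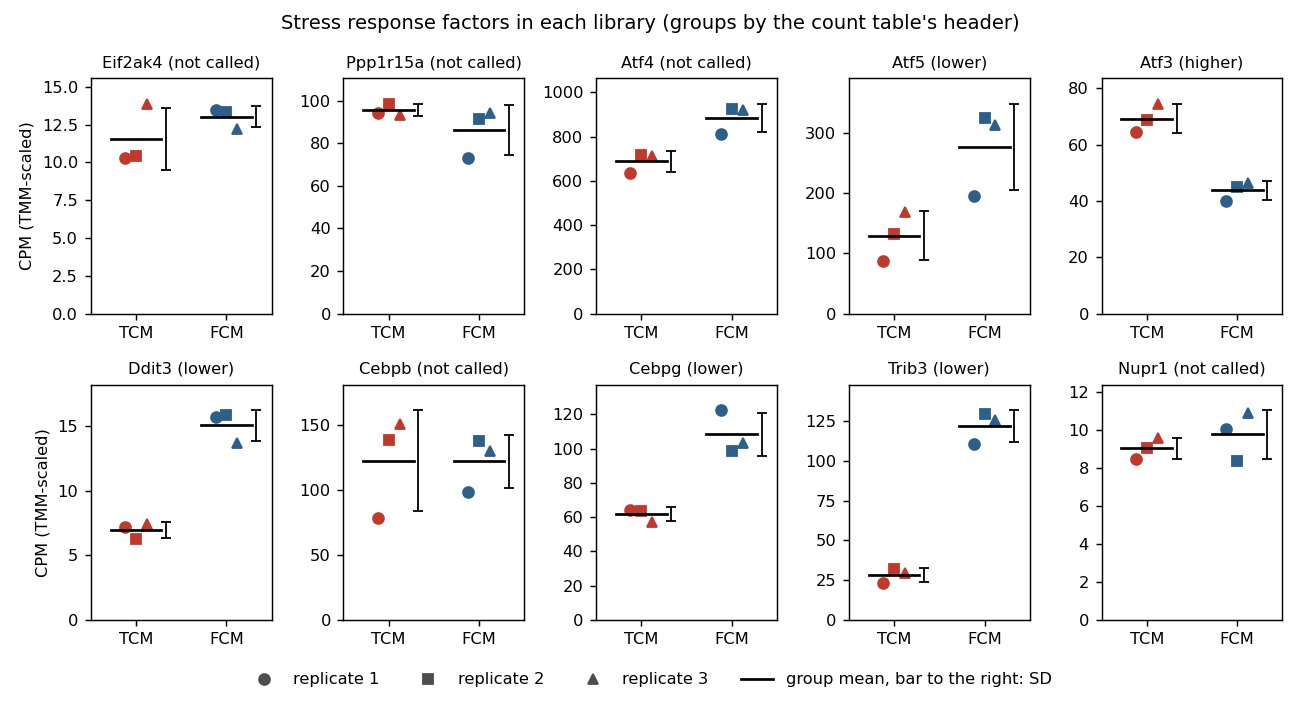
TMM-scaled CPM (vertical axes, from 0) of the 10 genes in the TCM and FCM libraries, with circles, squares and triangles for replicates 1, 2 and 3, lines for group means and bars for the SD (n = 3 each). Trib3, Ddit3, Atf5 and Cebpg sit lower in all TCM libraries and Atf3 sits higher, while the libraries of Cebpb, Nupr1, Ppp1r15a and Eif2ak4 overlap between groups.

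Eif2ak4, the kinase at the head of the amino acid branch, had 10.3, 10.4 and 13.9 CPM in TCM libraries and 13.5, 13.3 and 12.2 CPM in FCM libraries. The groups overlapped, since TCM replicate 3 was the highest of the 6 libraries. Its log2 fold change of -0.17 ± 0.15 (SE) did not pass (adjusted p = 0.326, edgeR), and it passed under none of the 14 alternatives that keep the header. Ppp1r15a encodes GADD34, the subunit that brings protein phosphatase 1 to eIF2 and reverses the phosphorylation. It had 94.3, 98.6 and 93.3 CPM in TCM libraries and 72.9, 91.2 and 94.4 CPM in FCM libraries, with FCM replicate 1 as the single low library. Its log2 fold change was 0.15 ± 0.14 (adjusted p = 0.374, edgeR), and its sign turned with library totals alone (-0.06) and with the trend on transcript length removed (-0.05).

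Atf4 was the most abundant of the 10 in every library, with 634, 716 and 713 CPM in TCM and 813, 925 and 919 CPM in FCM. All TCM libraries were below all FCM libraries, and each numbered pair gave nearly the same log2 ratio, -0.36, -0.37 and -0.37. The log2 fold change of -0.37 ± 0.16 (SE) nevertheless did not pass in the main fit, a TMM-scaled model of group only (adjusted p = 0.0717, edgeR). With the replicate number as a block it passed at -0.36 (adjusted p = 0.00231, edgeR), and without the replicate 1 libraries it passed at -0.38 (adjusted p = 0.000154). It also passed with library totals alone, a scaling that moves the median of all genes by -0.21, at -0.58 (adjusted p = 0.00427), with DESeq2 (-0.33, adjusted p = 0.0205) and with the length trend removed (-0.65, adjusted p = 0.00746). Over all 14 alternatives its adjusted p ran from 5.39e-08 to 0.21 and its sign did not turn.

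Atf5, a close relative of ATF4 that is likewise controlled in translation, had 87.4, 132 and 168 CPM in TCM libraries and 195, 324 and 313 CPM in FCM libraries. Replicate 1 was the lowest library of both groups, and the groups still did not overlap. Atf5 fell 2.15-fold, a log2 change of -1.10 ± 0.27 (adjusted p = 0.00705, edgeR). Of its exon bases, 4.11% are shared with Nup62 and the same percentage with Il4i1, both on the opposite strand, and neither neighbour passed the test (log2 changes of 0.00 and 0.39).

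Ddit3 encodes CHOP, a bZIP protein that pairs with C/EBP proteins and is tied to cell death under lasting stress. It had 7.18, 6.29 and 7.42 CPM in TCM libraries, which correspond to 135, 96 and 132 counts, and 15.7, 15.9 and 13.7 CPM in FCM libraries, from 346, 424 and 353 counts. The lowest FCM library was thus well above the highest TCM library. Ddit3 fell 2.16-fold, a log2 change of -1.11 ± 0.13 (adjusted p = 0.000122, edgeR). Mars, the methionyl-tRNA synthetase gene on the opposite strand, shares 3.97% of the exon bases of Ddit3 and had 43.0 ± 1.26 CPM in TCM and 84.3 ± 4.35 CPM in FCM (SD, n = 3 each). The strand setting of the counting is not given in the sources used here, so reads in the shared bases cannot be assigned to either gene.

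Trib3, a pseudokinase that is a target of ATF4 and CHOP and holds them back in turn, showed the furthest fall of the 10. It had 23.2, 32.1 and 29.2 CPM in TCM libraries and 111, 130 and 126 CPM in FCM libraries. Every TCM library was far below every FCM library. Trib3 fell 4.34-fold, a log2 change of -2.12 ± 0.16 (adjusted p = 8.41e-06, edgeR), and 2.58% of tested genes had a lower log2 fold change. The same percentage was 8.79% for Ddit3, 8.89% for Atf5, 14.8% for Cebpg and 33.2% for Atf4.

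Atf3, a stress-induced bZIP repressor that is also a known target of p53, had 64.3, 68.6 and 74.5 CPM in TCM libraries and 40.0, 45.1 and 46.3 CPM in FCM libraries. It was the single gene of the 10 that rose, in 3 of 3 numbered pairs. The rise was 1.58-fold, a log2 change of 0.66 ± 0.12 (adjusted p = 0.00159, edgeR), and 22.2% of tested genes had a higher log2 fold change. With the length trend removed its log2 change was 0.34 (adjusted p = 0.0383), and with library totals alone 0.44.

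The C/EBP members differed from each other. Cebpg, which encodes a short C/EBP protein without a transactivation domain that dimerizes with ATF4, had 64.3, 63.6 and 57.0 CPM in TCM libraries and 123, 98.6 and 104 CPM in FCM libraries. The groups did not overlap, and Cebpg fell 1.76-fold, a log2 change of -0.81 ± 0.13 (adjusted p = 0.000909, edgeR). Cebpb, a C/EBP factor prominent in macrophages and granulocytes, had 78.1, 139 and 151 CPM in TCM libraries and 98.7, 137 and 130 CPM in FCM libraries. Its replicate 1 libraries were the lowest of both groups, the groups overlapped, and its log2 change was 0.01 ± 0.24 (adjusted p = 0.983, edgeR), with a sign that turned under several settings. With the replicate number as a block and the length trend removed together it passed at -0.50 (adjusted p = 1.18e-05, edgeR), while the block alone gave -0.033 (adjusted p = 0.794) and the length trend alone -0.46 (adjusted p = 0.141). The neutrophil and macrophage sums above were lower in TCM in the same libraries, and their part in the Cebpb level was not tested. Tmem189, on the opposite strand, covers 20.7% of the exon bases of Cebpb and rose by 0.61 ± 0.19 on the log2 scale (adjusted p = 0.0214, edgeR), so the Cebpb counts are uncertain. Nupr1, a small chromatin-associated stress protein gene, had 8.46, 9.04 and 9.55 CPM in TCM libraries and 10.03, 8.34 and 10.9 CPM in FCM libraries, which overlapped (log2 change -0.11 ± 0.14, adjusted p = 0.504, edgeR). With the length trend removed Nupr1 passed at -0.37 (adjusted p = 0.0482).

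**Figure D2:**
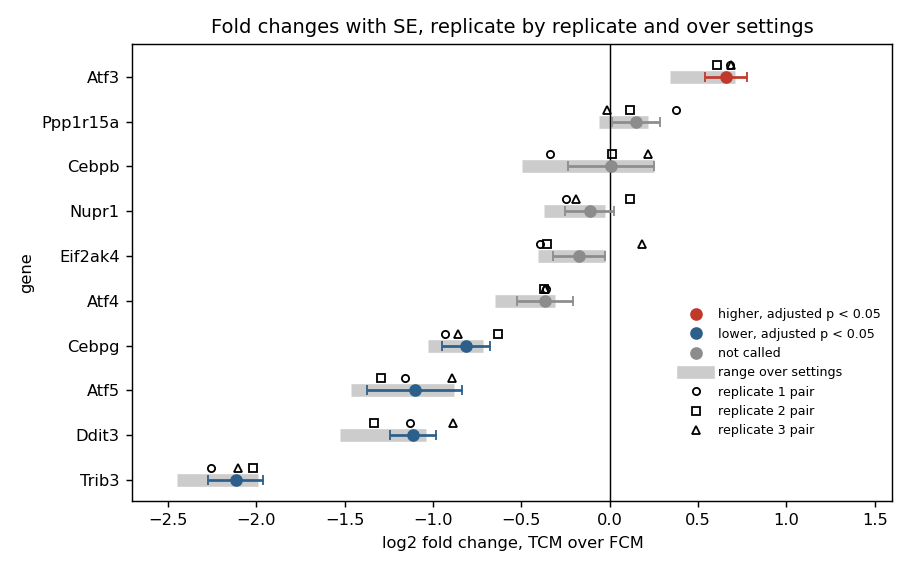
Log2 fold changes, TCM over FCM (horizontal axis), of the 10 genes: filled points with bars give the edgeR estimate and its SE, open symbols the ratio in each numbered pair, and grey bands the range over the 14 alternatives that keep the count table's header and the main fit. Trib3 lies between -2.45 and -1.99 over these settings and Atf3 between 0.34 and 0.71, while the bands of Cebpb and Ppp1r15a cross 0.

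Per kilobase of annotated exon, the levels spanned a wide range within each group. In TCM libraries the order of the mean levels was Atf4 (292 ± 19.7 CPM per kb, SD, n = 3), Cebpb (81.6 ± 25.98), Atf5 (64.9 ± 20.3), Ppp1r15a (32.5 ± 0.961), Atf3 (32.1 ± 2.38), Trib3 (13.3 ± 2.13), Cebpg (10.97 ± 0.711), Ddit3 (4.06 ± 0.349), Nupr1 (3.59 ± 0.217) and Eif2ak4 (1.54 ± 0.274). In FCM libraries it was Atf4 (376 ± 26.8 CPM per kb), Atf5 (139 ± 35.8), Cebpb (81.1 ± 13.7), Trib3 (57.4 ± 4.74), Ppp1r15a (29.3 ± 3.95), Atf3 (20.3 ± 1.55), Cebpg (19.3 ± 2.26), Ddit3 (8.81 ± 0.708), Nupr1 (3.88 ± 0.516) and Eif2ak4 (1.74 ± 0.0923). Among neighbours in the TCM order, the libraries overlapped between Cebpb and Atf5, Ppp1r15a and Atf3, Trib3 and Cebpg, and Ddit3 and Nupr1. In the FCM order, the libraries of Atf3 and Cebpg were the one pair of neighbours that overlapped. Trib3 thus ranked 6 in TCM, behind Ppp1r15a and Atf3, and 4 in FCM. These levels use the union of all annotated exons, which overstates the length of a gene with unused exons.

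Within a library, the ratio of each gene to Atf4 does not depend on how libraries are scaled. Per kilobase, Trib3 stood at 4.06% to 4.98% of Atf4 in TCM libraries and at 15.1% to 15.6% in FCM libraries. Ddit3 stood at 1.21% to 1.56% of Atf4 in TCM and at 2.05% to 2.66% in FCM, and Cebpg at 3.35% to 4.25% in TCM and 4.47% to 6.33% in FCM. Atf5 stood at 16.3% to 27.9% of Atf4 in TCM and at 28.4% to 41.5% in FCM, a narrow gap. Trib3, Ddit3, Cebpg and Atf5 were thus lower in TCM relative to Atf4 as well. Atf3 stood at 10.5% to 11.4% of Atf4 in TCM and 5.34% to 5.52% in FCM, and Ppp1r15a at 10.5% to 11.9% in TCM and 7.20% to 8.24% in FCM. Nupr1 stood at 1.18% to 1.26% in TCM and 0.846% to 1.16% in FCM. Of the 9 genes set against Atf4, 7 did not overlap between the groups, against 61.9% of all other tested genes set against it.

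**Figure D3:**
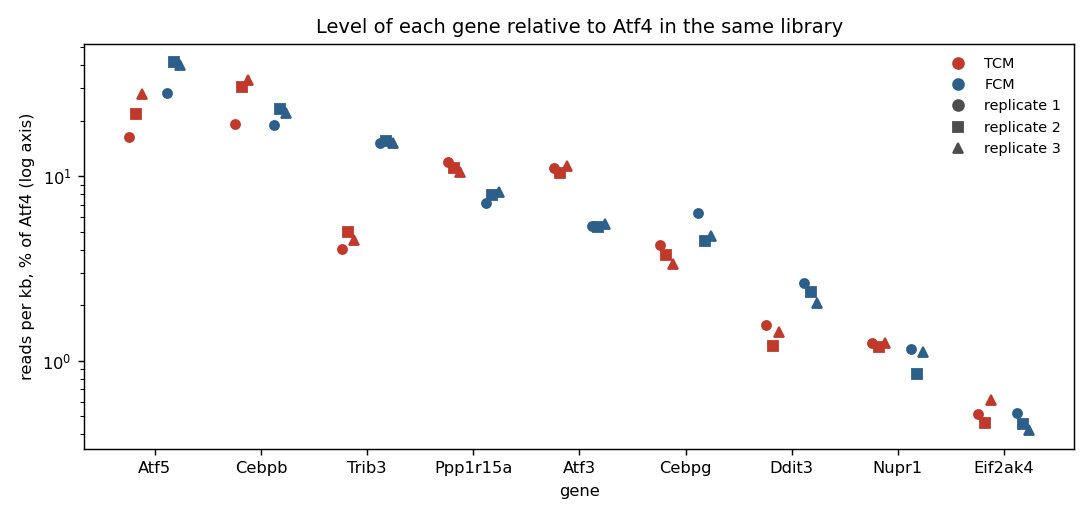
Reads per kb of each gene as a percentage of Atf4 in the same library (log axis), TCM in red left of FCM in blue, with symbols for replicates 1 to 3. Trib3 is at 4.06% to 4.98% in TCM and 15.1% to 15.6% in FCM, and Cebpb and Eif2ak4 overlap between groups.

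Other genes of the pathway were read from lists, which were chosen with earlier results of these data known. Of 32 tested ATF4 target genes, 27 fell in TCM, 4 rose and 1 did not pass (Eif4ebp1), with a median log2 change of -1.27, against -0.02 over all tested genes and the 30.0% of all genes that fell. Atf4 RNA itself had a log2 change of -0.37 that did not pass. The neutrophil, macrophage and B cell sums above were also lower in TCM, and their part in the list's values was not tested. Aldh1l2, a mitochondrial folate enzyme gene, had 0.833 ± 0.326 CPM in TCM and 16.7 ± 1.34 CPM in FCM (SD, n = 3 each), and Cth, which makes cysteine, had 9.35 ± 0.584 CPM in TCM and 71.1 ± 18.6 CPM in FCM. The asparagine synthetase gene Asns changed by -1.98 ± 0.12 and the alanine aminotransferase gene Gpt2 by -1.79 ± 0.12 on the log2 scale (adjusted p = 2.31e-06 and 5.10e-06, edgeR). The 4 that rose were Ddit4, an inhibitor of mTORC1, by 3.03 ± 0.26, Gdf15, a stress-induced cytokine, by 2.36 ± 0.25, Slc7a11, the cystine transporter, by 0.95 ± 0.23, and Sesn2, a leucine sensor, by 0.47 ± 0.14 on the log2 scale. Ddit4, Gdf15 and Sesn2 are, like Atf3, also known as p53 targets, and a part of p53 in these rises was not tested.

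In the list of CHOP-linked genes, 5 of 7 rose and 1 fell, against 28.8% and 30.0% of all tested genes, with a median log2 change of 0.56, whereas Ddit3 itself fell. With library totals alone, 3 rose. Tnfrsf10b, the TRAIL death receptor gene, had 72.3 ± 12.8 CPM in TCM and 12.4 ± 0.344 CPM in FCM (SD, n = 3 each), a 5.83-fold rise (adjusted p = 2.42e-06, edgeR). Pmaip1 and Bbc3, which encode the cell death proteins NOXA and PUMA, rose 3.21-fold and 3.27-fold. These 3 are also known as p53 targets, and here too a part of p53 was not tested. Dnajc3, a chaperone gene whose product holds back eIF2 kinases, fell by 0.84 on the log2 scale (SE 0.11). Of 13 genes of folding in the endoplasmic reticulum and its stress sensors, 8 fell, 2 rose and 3 did not pass (median -0.71), against 30.0% of all tested genes that fell and 28.8% that rose. Herpud1 fell 2.34-fold, the chaperone gene Hspa5 2.13-fold, Pdia4 1.85-fold and Creld2 1.71-fold. Sdf2l1 and Edem1 rose, by 1.09 ± 0.20 and 0.84 ± 0.16 on the log2 scale.

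Among 19 genes of eIF2, its kinases and its phosphatase, 5 fell, 2 rose and 12 did not pass (median -0.09). Against a background of 58.8% of all tested genes, 7 of the 19 passed, and with the replicate number as a block 8 fell and 5 rose, where 37.0% of all tested genes fell and 36.3% rose. Eif2ak2, the interferon-inducible kinase PKR, had 18.3 ± 1.39 CPM in TCM and 42.8 ± 2.24 CPM in FCM (SD, n = 3 each; adjusted p = 3.52e-05, edgeR). Gcn1l1, which encodes the partner that activates GCN2, changed by -0.59 ± 0.14, and Ppp1r15b, the constitutive relative of Ppp1r15a, by -0.62 ± 0.19 on the log2 scale. Ppp1cc, a catalytic subunit of protein phosphatase 1, rose by 1.20 ± 0.13 and Eif2s3x, an eIF2 subunit, by 0.43 ± 0.15. Without TCM replicate 2 or FCM replicate 3, 2 of the 19 fell and 1 rose. Likewise, without TCM replicate 3, 2 fell, without FCM replicate 2, 3 fell and 1 rose, and without both replicate 1 libraries 8 fell and 5 rose.

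Of 15 bZIP factors that can pair with the members, 6 fell and 5 rose (median -0.19), and these 11 stand against 58.8% of all tested genes that passed either way. Batf3 and Batf, activation-induced AP-1 family genes of T cells, rose 7.92-fold and 5.01-fold (adjusted p = 3.24e-06 and 6.34e-05, edgeR). Junb, Fos and Fosl2 rose by 1.25 ± 0.27, 1.03 ± 0.14 and 0.80 ± 0.16 on the log2 scale. Cebpe, the C/EBP factor of late granulocyte development, had 1.24 ± 0.258 CPM in TCM and 22.1 ± 5.37 CPM in FCM (SD, n = 3 each), a 17.8-fold fall beside that of the neutrophil markers. Nfe2l2, the antioxidant regulator NRF2, fell 2.08-fold (adjusted p = 0.000209, edgeR).

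**Figure D4:**
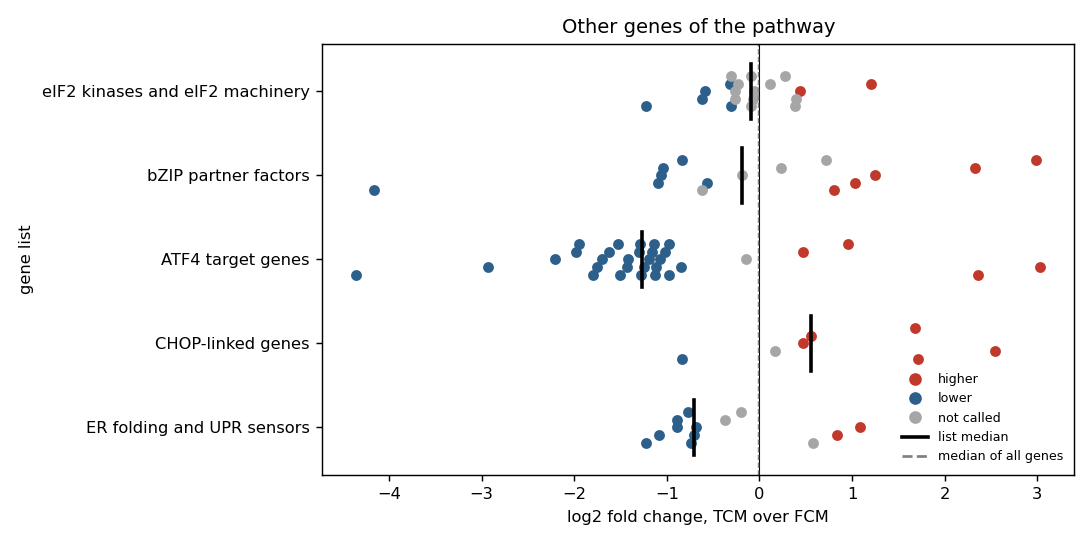
Log2 fold change, TCM over FCM (horizontal axis), of each tested gene in the 5 pathway lists, with black bars for list medians and a dashed line for the median of all tested genes. ATF4 targets lie mostly to the left, around a median of -1.27, and CHOP-linked genes to the right, around 0.56.

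Over the 6 libraries, the genes whose log2 CPM followed Atf4 most closely were C1qc, Cited2, H2-T23, Phf1 and Aven, with Pearson correlations from 0.997 to 0.998, among the 8476 named genes that averaged 3 or more on the log2 CPM scale. Each of the 5 fell in TCM. Among the genes closest to Ddit3 were Nsd1, Nktr, Gnl3 and Inadl, with correlations from 0.998 to 0.999, and each of these fell as well. These directions were set by the choice of the genes, since Atf4 and Ddit3 were themselves lower in all TCM libraries. Of the members, Atf5 was closest to Atf4 (0.979) and Trib3 to Ddit3 (0.962), while Atf3 ran opposite to Ddit3 (-0.958). All of these correlations rest on 6 libraries in 2 groups with shared replicate numbers and are given as a description.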

How the data were processed

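The 6 libraries, 3 TCM and 3 FCM, came as raw exon counts for each gene symbol in a table deposited by the authors. The authors' normalized table holds a signal, the counts scaled by 1 size factor for each library: whole reads were recovered for 100% of its nonzero values (tolerance 0.1 reads), and the count test on them is the alternative with that table's header. The tools and build named are DESeq2 1.28.1, STAR 2.7.2d and mm10, per the submitters' processing notes. What each was used for, how reads were counted, and with which annotation and strand setting, is not given in the sources used here.

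From the counts, edgeR 4.0.16 in R 4.3.3 kept genes by filterByExpr, applied TMM and ran its quasi-likelihood test on a model of group only, with p-values adjusted by Benjamini-Hochberg over 12423 genes, after 92 spike-in rows, all at 0, were left out. The fit was tested on simulated data. A standard error is the log2 fold change divided by the square root of F. Coordinates and exon lengths are from GENCODE M21 on GRCm38, the build also called mm10. The length trend was a loess curve (span 0.5) of fold change on log2 exon length over the 94.0% of tested genes with a length. Within each group no library was a duplicate of another, since chi-square per gene between replicates of a group was 5.08 to 110. Pairs of libraries from different groups were not compared in this way. Replicate 1 libraries of both groups stood apart on the second principal component (8.32% of variance). Same-numbered libraries deviated together from their group means (correlations 0.60, 0.146 and 0.36). The replicate block follows the numbers in the titles and was fitted as an alternative, while the main fit holds the group only. Only the replicate 1 libraries stood out as a pair: TCM 3 correlated at 0.424 with FCM 2, and TCM 2 at 0.266 with FCM 3, so the numbers 2 and 3 are not matched by these values.

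The members and lists were chosen with earlier results of these data known. The text names all 10 members, in each list the 4 genes with the smallest p among those that passed and any that went against the majority, and the 5 genes most like each of Atf4 and Ddit3, of which 1 is not reported here. Alternatives were DESeq2 1.42.0, other scalings, no filter, the replicate block, the length trend, left-out libraries and the other table's header.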

Additional observations from a re-analysis of the deposited data

How the results depend on the processing

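The fold changes of Trib3, Ddit3, Atf5, Cebpg and Atf3 kept their direction and stayed past the threshold under all 14 alternatives that keep the count table's header. With the normalized table's header, 4 of the 10 genes were higher in TCM and 1 was lower. With the replicate block and the length trend removed together, 7 of the 10 were lower, Atf4, Nupr1 and Cebpb among them, where 37.3% of all tested genes were lower, against 30.0% without either. The replicate block alone changed 1 call of the 10, that of Atf4, at -0.36 (adjusted p = 0.00231, edgeR). Cebpb turned to -0.24 with library totals alone, -0.0055 without the low-count filter, -0.033 with the replicate block, -0.46 with the length trend removed and -0.50 with both of the last (adjusted p = 1.18e-05, edgeR), and ran from -0.16 to 0.25 with libraries left out. Ppp1r15a turned to -0.058 with library totals alone, -0.047 with the length trend removed and -0.038 with that and the replicate block. Among eIF2 genes, 1 rose with library totals alone, 5 rose with the replicate block and 4 with block and length trend, and 1 to 5 rose with libraries left out. In that list 3 fell with DESeq2 size factors and 3 with the DESeq2 test, 8 with the block, 9 with block and length trend, and 2 to 8 with libraries left out. With library totals alone, 2 ATF4 targets and 3 CHOP-linked genes rose, and with the length trend removed 1 folding gene rose. The cause of these moves was not tested. Depth did not order the precision of the 10 genes: the standard error was 0.13 for Ddit3, with 96 to 424 counts per library, and 0.27 for Atf5, with 1643 to 8669.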
